A study of Drosophila melanogaster with 33 samples.

Results

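The genes described here are 40 genes of the cell cycle and of DNA replication, measured in eye-antennal imaginal discs of Drosophila melanogaster, the larval epithelia that form the eye, the antenna and much of the head. They were chosen by name, out of 16727 gene symbols in the count tables. Of the names 38 are symbols of the tables and 2 were found under another symbol, fzr as rap and wee as Wee1. The symbol E2f stands for E2f1, and dpa for Mcm4. All 40 passed the count filter, which spans all libraries of a fit, so all were tested in every comparison. Passing it does not mean that each group compared had enough counts. By role, 8 control the step from G1 to S phase, 11 license and unwind replication origins, 2 code for ribonucleotide reductase, 7 control the entry into mitosis, 4 belong to the anaphase-promoting complex, securin and spindle checkpoint group, and 8 act in the spindle, the centromere and cytokinesis. A set of 12 members was called S phase genes (the Mcm, Orc and Rnr genes) and a set of 16 mitotic genes (from the mitotic cyclins to the centromere), with the other 12 in neither.

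A dividing disc cell passes G1 when Cyclin D with Cdk4 and Cyclin E with its kinase free the transcription factor E2f1, bound to its partner Dp, from the retinoblastoma protein Rbf. E2f1 and Dp then drive genes of DNA synthesis, among them the Mcm and Rnr genes, while E2f2 and Rbf repress such genes. Entry into mitosis is set in disc cells by the phosphatase String (stg), which activates the mitotic kinase and is opposed by the kinase Wee1. In the eye disc, cells ahead of the moving differentiation front divide without synchrony, arrest in G1 in the front, and pass one further synchronous division behind it. Yorkie (Yki), the transcriptional co-activator that the Hippo pathway restrains, is held back by the kinase Warts (Wts), binds DNA through Scalloped (Sd), and is known to raise Cyclin E and E2f1 activity in disc cells.

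The 33 libraries were made 5 days after egg laying, at 25°C, from at least 30 pooled discs each, and fall into 8 groups. The eyFLP wts- group (2 libraries) carried y w ey-FLP/y w on the first chromosome and FRT82B cl-/FRT82B wts149 on the third, and the eyFLP ctrl group (3 libraries) carried FRT82B cl-/FRT82B in its place. In both, ey-FLP drives recombination in eye-antennal discs, and the labels do not give the share of cells that carry wts149 on both chromosomes. The optix yki3SA group (2 libraries) was w/y v with optix-Gal4 over a wild-type chromosome driving UAS-yki3SA, a Yki form with altered inhibitory phosphorylation sites, and the optix ctrl group (3 libraries) carried UAS-lucRNAi, a luciferase hairpin, instead. The MARCM groups, which carry positively marked mitotic clones, came in sequencing runs 1 and 2. In run 1, yki3SA sd- (3 libraries) and sd- (3 libraries) had sd47M FRT19A/tub-Gal80 FRT19A with ey-FLP, Act5C<y+<Gal4 and UAS-GFP, the first also UAS-yki3SA. Their run 1 counterparts yki3SA (5 libraries) and ctrl (5 libraries) had FRT19A/tub-Gal80 FRT19A with the same driver, the first also UAS-yki3SA. In run 2, yki3SA sd- (2 libraries) and sd- (2 libraries) kept these genotypes, but yki3SA (1 library) and ctrl (2 libraries) had y w ey-FLP/y w on the first chromosome, FRT42D over FRT42D tub-Gal80 on the second, and tub-Gal4 with UAS-GFP on the third, with clones on another chromosome arm and under another driver. Run 1 samples are labelled polyA RNA and run 2 samples total RNA. Whole discs were sequenced, so the values also hold cells outside the clones and outside the optix domain. The labels do not say whether libraries of a group came from separate crosses, so p-values measure the spread between these libraries only.

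Total counts ran from 4874192 to 19128356 per library. The scaling factors of the MARCM libraries were 0.742 to 0.877 in run 1 and 1.27 to 1.64 in run 2, and levels of single genes differed strongly between the runs, so MARCM libraries are compared within a run or with the run as a term of the fit. Counts of the 3 manipulated genes came from transcript 3' ends and did not check the genotypes, since the labels do not say whether the lesions or the transgene change these ends. The wts count was higher in eyFLP wts- discs than in their controls (log2 fold change 0.55, adjusted p = 0.0062), and sd in MARCM sd- libraries did not pass the test (log2 fold change -0.27, adjusted p = 1). In yki3SA sd- against yki3SA the edgeR test called sd (-1.13, adjusted p = 2.25e-08) and yki (-3.29, adjusted p = 0.00209) lower. In MARCM yki3SA against ctrl it called sd (0.77, adjusted p = 9.68e-07) and wts (1.12, adjusted p = 7.84e-07) higher. The gene yki had 9.84 and 45.4 CPM in optix yki3SA and 6.07, 0 and 17.4 CPM in optix ctrl libraries. In MARCM run 1 it had 5.4, 2.87 and 10.4 CPM in yki3SA sd-, 56.3, 47.7, 49.9, 51.9 and 85.5 CPM in yki3SA, 71.7, 66 and 1.45 CPM in sd- and 28.1, 19.9, 28.4, 56.3 and 60.6 CPM in ctrl libraries. In run 2 it had 99.1 and 110 CPM in yki3SA sd-, 2146 CPM in yki3SA, 64.7 and 63.5 CPM in sd- and 67.1 and 64.1 CPM in ctrl libraries. The 3 yki3SA sd- libraries of run 1 and sd- replicate 3 of run 1 stood apart, with few yki counts and with Rbf, dpa and tum below all other run 1 MARCM libraries, so results that rest on them are also given without these 4 libraries.

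Levels below are CPM, read counts scaled by library size and TMM factors, which compare 1 gene between libraries and not genes with each other. A gene was called where the adjusted p of the edgeR quasi-likelihood test, adjusted by Benjamini-Hochberg over all genes tested, was below 0.05. Called genes rose or fell, and fold changes are log2 values of the first group named over the second, with standard errors derived from the test. Counts of members called in alternative fits are given without the share of all genes called there. They show only how the member calls depend on the fit.

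In discs that had lost wts, replication genes were most of the members that rose (5 of 11 licensing and helicase genes and 2 of 2 ribonucleotide reductase genes), while the Cdk inhibitor dacapo (dap), CycD and E2f fell. Of the 40 members 10 rose and 3 fell, and 24.0% of the 8693 genes tested were called in this comparison, 10.6% higher and 13.5% lower. Those that rose were Klp61F (0.99), Orc2 (0.92), RnrL (0.79), Mcm5 (0.73), Mcm6 (0.61), dup (0.60), Mcm7 (0.53), Incenp (0.50), trbl (0.50) and RnrS (0.42), each with its log2 fold change. Those that fell were dap (-0.92), CycD (-0.64) and E2f (-0.51). The median over all members was 0.32, beside -0.01 over all genes tested. With either wts- library left out the count was 7 or 8: without replicate 1 the calls of E2f, Orc2, dup, Mcm7, RnrS and trbl ended (adjusted p 0.0568 to 0.154), and without replicate 2 those of CycD, dup, Mcm7, RnrS and Incenp (0.0778 to 0.173). Without eyFLP ctrl replicate 2 the calls of Mcm7 and RnrS ended, and without ctrl replicate 3 those of dup, Mcm7 and RnrS (adjusted p 0.05 to 0.116). With only the eyFLP libraries in the fit, 22 members were called, the same 13 among them.

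Under the optix driver 7 members rose and 3 fell, beside 19.5% of all 8693 genes called, 9.02% higher and 10.5% lower. Those that rose were dpa (1.13), fzy (0.90), Mcm5 (0.70), dup (0.69), Cdk4 (0.65), polo (0.52) and RnrL (0.51), again with log2 fold changes. Those that fell were rap (-0.83), dap (-0.81) and stg (-0.61). The median over members was 0.20, beside 0.03 over all genes. This comparison rested on few libraries: without optix yki3SA replicate 2 only dap, stg and rap were called (the rises at adjusted p 0.173 to 0.724), without optix ctrl replicate 2 the calls of dup, dpa, Mcm5, RnrL and fzy ended (0.0504 to 0.164) and 5 members were called, and with only the optix libraries in the fit 1 member, dap, was called.

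In MARCM yki3SA discs members of S phase and of later roles rose. In the fit of all MARCM libraries 19 members rose and 1 fell, beside 34.4% of 8927 genes called, 17.3% higher and 17.1% lower. In S phase roles these were RnrL (1.02), Orc2 (0.80), dup (0.79), Orc1 (0.77), Mcm5 (0.69), Mcm6 (0.67), RnrS (0.60), Mcm7 (0.54) and Mcm2 (0.45). Members with later roles that rose were cid (1.29), stg (0.81), ncd (0.67), Klp61F (0.67), pav (0.65), Incenp (0.60), trbl (0.59), borr (0.55) and polo (0.49), and CycE rose by 0.50. The 1 member that fell was dap (-0.28). The median was 0.51, beside 0.08 over all genes. Same-numbered ctrl and yki3SA libraries of run 1 shared deviations from their group means, but so did some pairs with different numbers. With the number as a block in the fit of all MARCM libraries, 16 members were called and dap, Orc1, Orc2 and Klp61F were lost. With only ctrl and yki3SA libraries in the blocked fit 27 were called and stg was lost (adjusted p = 0.109). All 10 members that rose in eyFLP wts- also rose here, which is 100% of those 10 and 52.6% of the 19. Of the 7 that rose in optix yki3SA 4 rose here, which is 57.1% of those 7 and 21.1% of the 19. These counts carry no test. The same overlap over all genes was not computed, so they cannot show a trait particular to the members. In run 1 alone 14 members were called, without Orc1, Orc2, Mcm2, RnrS, Klp61F and borr. In run 2 alone yki3SA is a single library, assumed to vary like the other groups, so no count of calls is given. Leaving out single libraries ended the calls of dap, Orc1 and Klp61F in 10 of 13 cases each (adjusted p 0.0531 to 0.221), of Orc2 in 6 of 13 (0.0513 to 0.188), and of ncd without the yki3SA library of run 2 (0.0841).

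Loss of sd alone moved none of the members past the test. In MARCM sd- against ctrl 0 of 40 were called by edgeR, by DESeq2 or by limma-voom, 0 had an unadjusted p below 0.05, beside 3.42% of all genes, and 0.101% of all genes were called, 0.0784% higher and 0.0224% lower. Added on top of sd loss, yki3SA also gave 0 calls by the 3 tools, beside 0.134% of all genes called, 0.0336% higher and 0.101% lower. An unadjusted p below 0.05 was found for 14 of the 40 members, 7 higher and 7 lower, and for 23.7% of all genes. Run 1 alone gave 7 calls here and run 2 alone 1. In run 1 Dp, Orc1, Orc2, CycA and Klp61F rose and Cdk4 and tum fell. In run 2 borr fell, with 50.2 and 52.8 CPM in yki3SA sd- libraries, against 67.9 and 73.5 CPM in sd- libraries. All run 1 yki3SA sd- libraries are among the 4 that stood apart. Without those 4 libraries 0 members were called. That fit has no run 1 yki3SA sd- library left, so it cannot show where the run 1 calls came from.

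Discs with yki3SA clones that lacked sd had lower levels of many replication and mitotic genes than discs with yki3SA clones. Of the 40 members 22 fell and 2 rose, beside 53.0% of all genes called, 24.9% higher and 28.1% lower. The members that fell were cid (-2.02), dpa (-1.45), RnrL (-1.36), tum (-1.27), Rbf (-1.19), Mcm5 (-1.19), stg (-1.13), borr (-1.12), Mcm3 (-1.08), Mcm6 (-1.06), RnrS (-0.86), E2f2 (-0.82), Cdk4 (-0.73), fzy (-0.71), dup (-0.62), Mcm2 (-0.60), Incenp (-0.52), pav (-0.47), polo (-0.43), Mcm7 (-0.43), CycB (-0.35) and CycE (-0.34). Those that rose were CycD (0.87) and Wee1 (0.85). Without the 4 libraries that stood apart 26 members were called, 18 of them among these 24; Cdk4, E2f2, CycB, fzy and tum were then not called (adjusted p 0.0574 to 0.388), and Wee1 changed sign to -0.13 (adjusted p = 0.601). That fit has no run 1 yki3SA sd- library left, so it rests on the run 2 yki3SA sd- libraries. Without yki3SA sd- replicate 1 of run 1 the calls of CycE, dup, Mcm7, CycB, polo and pav ended (adjusted p 0.0666 to 0.323), and over all 11 libraries left out in turn CycB was lost 8 times, dup 5 times and Mcm7 4 times. The interaction, which tests whether the yki3SA difference was itself different without sd, was called for 15 members, all negative, beside 27.9% of all genes, 15.0% positive and 13.0% negative. They were cid (-2.07), RnrL (-1.34), dpa (-1.27), tum (-1.22), Rbf (-1.15), borr (-1.08), stg (-1.05), Mcm3 (-1.04), Mcm5 (-1.04), Mcm6 (-0.95), RnrS (-0.90), pav (-0.66), Mcm2 (-0.63), Incenp (-0.53) and CycE (-0.47). The count was 9 in run 1 alone (7 of the 15) and 24 without the 4 libraries that stood apart (all 15). It was 9 without sd- replicate 1 of run 1, with Rbf, Mcm3, dpa, pav, tum and Incenp lost (adjusted p 0.0546 to 0.0877). In run 2 alone 0 of the 15 changed sign, but that run has 1 yki3SA library, under another driver and clone arm than yki3SA sd-. The yki count was also called in the interaction (log2 -3.34, edgeR adjusted p = 0.0197). It differs together with sd and the 2 cannot be told apart. Of the 19 members that rose with yki3SA, 14 fell in yki3SA sd- against yki3SA. These comparisons share the yki3SA libraries, and the overlap over all genes was not computed, so this overlap is a description of the calls.

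**Figure D1:**
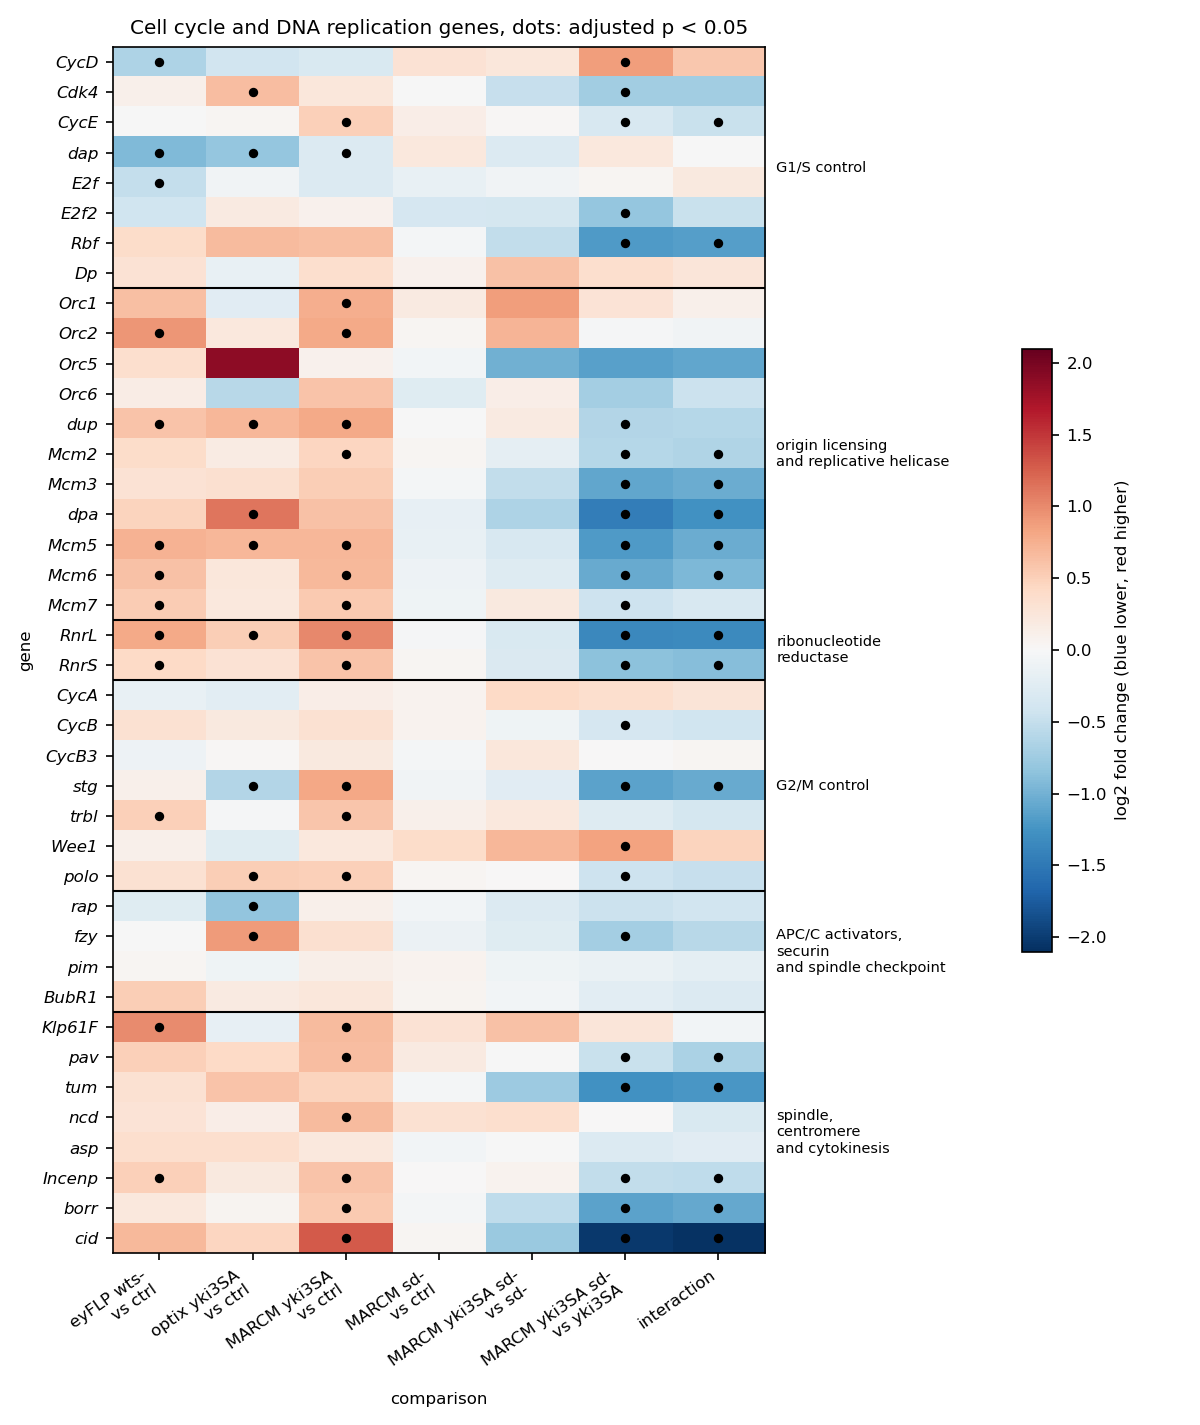
Log2 fold change of each of the 40 members (rows, grouped by role) in the 7 comparisons (columns), blue lower and red higher in the first group named, with a dot where the adjusted p was below 0.05. Of the 11 licensing and helicase rows 11, 9 and 11 lie above 0 in the first 3 columns and 10 lie below 0 in the yki3SA sd- against yki3SA column, the sd- column has 0 dots, and the dark red cell of Orc5 in the optix column has no dot.

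The same libraries also differed in other cell types. Markers of photoreceptors and neurons fell in 17 of 17 cases in eyFLP wts-, optix yki3SA and MARCM yki3SA discs alike. Their summed level was 153 to 170 CPM in eyFLP wts- libraries, against 2063 to 2396 CPM in eyFLP ctrl libraries, and 306 to 341 CPM in optix yki3SA libraries, against 2294 to 2795 CPM in optix ctrl libraries. In MARCM run 1 it was 2931 to 3331 CPM in yki3SA sd-, 419 to 514 CPM in yki3SA, 2507 to 3159 CPM in sd- and 2520 to 2715 CPM in ctrl libraries. In MARCM run 2 it was 1579 to 1630 CPM in yki3SA sd-, 74.1 CPM in yki3SA, 1500 to 1732 CPM in sd- and 1206 to 1263 CPM in ctrl libraries. All 17 rose in yki3SA sd- against yki3SA. Of these markers boss was at 0 in eyFLP wts- discs and no other was at 0 in any group. Photoreceptors and neurons have left the cell cycle, and in whole discs fewer cells of a type and less RNA per cell cannot be told apart. The part of this shift in the changes of cell cycle genes was not tested. Hemocyte markers (6 genes, none at 0) summed in run 1 to 115 to 282 CPM in yki3SA sd-, 7.49 to 15.7 CPM in yki3SA, 33 to 77.3 CPM in sd- and 40.8 to 61.9 CPM in ctrl libraries, and in yki3SA sd- against yki3SA 5 of 6 rose. Their run 2 sums were 45.7 to 65 CPM in yki3SA sd-, 26.5 CPM in yki3SA, 51.5 to 61.3 CPM in sd- and 60.8 to 68.1 CPM in ctrl libraries, so that yki3SA sd- libraries lay above ctrl in run 1 and overlapped with ctrl in run 2. Peripodial markers (4 of 5 names in the tables, with Ubx at 0 in optix yki3SA and in run 2 sd- libraries) summed in run 1 to 4664 to 7781 CPM in yki3SA sd-, 1341 to 1482 CPM in yki3SA, 4378 to 5820 CPM in sd- and 4070 to 4662 CPM in ctrl libraries, and 2 of 3 tested rose in yki3SA sd- against yki3SA. In run 2 they summed to 1731 to 1863 CPM in yki3SA sd-, 284 CPM in yki3SA, 2063 to 2068 CPM in sd- and 2245 to 2395 CPM in ctrl libraries, with yki3SA sd- below ctrl there and above it in run 1. Neuroblast markers, with wor at 0 in several groups, summed to 31.3 to 31.5 CPM in eyFLP wts- libraries, against 51.7 to 70.4 CPM in eyFLP ctrl libraries, with 3 of 5 tested falling and 1 rising. Of the tested markers of glia, muscle with myoblasts, fat body, trachea and gonad, 2 of 4, 2 of 6, 4 of 6, 1 of 2 and 0 of 1 fell in MARCM yki3SA against ctrl, and 1 rose in each of these lists but that of fat body.

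Ribonucleotide reductase makes the deoxynucleotides for DNA synthesis and consists of a large subunit, RnrL, and a small one, RnrS. The RnrL gene (FBgn0011703, 2L:10325026-10327943, minus strand, BDGP6 assembly, which is dm6) had 144 and 152 CPM in eyFLP wts- discs, against 95.3, 90.7 and 70.4 CPM in eyFLP ctrl discs. In the optix model it had 102 and 117 CPM in optix yki3SA discs, against 101, 62.1 and 66.8 CPM in optix ctrl discs. Both wts- libraries lay above all eyFLP controls, and so did both optix yki3SA libraries above theirs, the lower of them by little. MARCM run 1 gave 54.7, 62.5 and 106 CPM in yki3SA sd-, 203, 206, 198, 196 and 200 CPM in yki3SA, 112, 108 and 83.8 CPM in sd- and 108, 99.8, 97.9, 104 and 99.2 CPM in ctrl libraries. Run 2 gave 95.5 and 101 CPM in yki3SA sd-, 242 CPM in yki3SA, 101 and 117 CPM in sd- and 111 and 108 CPM in ctrl libraries. The yki3SA libraries were the highest of their run in both runs and did not overlap with any other group, while yki3SA sd- libraries overlapped with ctrl in run 1 and lay below it in run 2. RnrL rose in eyFLP wts- (log2 fold change 0.79 ± 0.15 (SE), adjusted p = 0.000371), in optix yki3SA (log2 fold change 0.51 ± 0.15 (SE), adjusted p = 0.0219) and in MARCM yki3SA (log2 fold change 1.02 ± 0.12 (SE), adjusted p = 3.33e-07). It fell in yki3SA sd- against yki3SA (log2 fold change -1.36 ± 0.13 (SE), adjusted p = 3.29e-08) and had the smallest adjusted p of the members in the interaction (-1.34 ± 0.18 (SE), adjusted p = 6.21e-06). The call in the optix model ended without optix ctrl replicate 2 or 3 or without yki3SA replicate 2 (adjusted p 0.0708 to 0.226).

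For RnrS the levels were 128 and 135 CPM in eyFLP wts- discs, against 106, 105 and 83 CPM in eyFLP ctrl discs. RnrS had 134 and 118 CPM in optix yki3SA discs, against 117, 104 and 85.9 CPM in optix ctrl discs. MARCM libraries of run 1 held 109, 37.1 and 132 CPM in yki3SA sd-, 197, 168, 171, 144 and 147 CPM in yki3SA, 127, 112 and 117 CPM in sd- and 119, 110, 112, 104 and 98.2 CPM in ctrl libraries. Those of run 2 held 68.9 and 76.4 CPM in yki3SA sd-, 144 CPM in yki3SA, 79.4 and 90.2 CPM in sd- and 91.7 and 91.1 CPM in ctrl libraries. In all 3 models the wts- or yki3SA libraries lay above their controls without overlap, and 1 yki3SA sd- library of run 1, replicate 2, was far below the rest. RnrS rose in eyFLP wts- (log2 fold change 0.42 ± 0.15 (SE), adjusted p = 0.0431) and MARCM yki3SA (log2 fold change 0.60 ± 0.17 (SE), adjusted p = 0.00836) and not by the test in optix yki3SA (0.30, adjusted p = 0.167). It fell in yki3SA sd- against yki3SA (log2 fold change -0.86 ± 0.19 (SE), adjusted p = 0.000928), and its call in wts- ended in 4 of 5 cases of leaving out a library (adjusted p 0.05 to 0.173).

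The Mcm proteins form the ring of the replicative helicase, the Orc proteins mark origins, and Double parked (dup) is the Cdt1 protein that loads the ring. Of these 11 members 5 rose in eyFLP wts-, 3 in optix yki3SA and 7 in MARCM yki3SA, with medians of 0.53, 0.24 and 0.62. Of all genes tested 10.6%, 9.02% and 17.3% rose there. Mcm6 (FBgn0025815, X:6674387-6677176) had 94.2 and 87.6 CPM in eyFLP wts- discs, against 65.3, 63.5 and 49.8 CPM in eyFLP ctrl discs. Mcm6 had 70.7 and 70.6 CPM in optix yki3SA discs, against 76.7, 51.6 and 51 CPM in optix ctrl discs. In run 1 of the MARCM model Mcm6 had 66.7, 34.7 and 70.9 CPM in yki3SA sd-, 115, 119, 121, 131 and 109 CPM in yki3SA, 75.2, 67.4 and 73.5 CPM in sd- and 74.9, 78.6, 82.6, 84.1 and 72.1 CPM in ctrl libraries. In run 2 it had 85 and 88.9 CPM in yki3SA sd-, 201 CPM in yki3SA, 97.5 and 104 CPM in sd- and 103 and 105 CPM in ctrl libraries. The wts- and yki3SA libraries of the eyFLP and MARCM models stood above all their controls, the optix groups overlapped, and yki3SA sd- libraries of both runs lay below ctrl. Mcm6 rose in eyFLP wts- (log2 fold change 0.61 ± 0.15 (SE), adjusted p = 0.00376) and MARCM yki3SA (log2 fold change 0.67 ± 0.12 (SE), adjusted p = 7.84e-05), fell in yki3SA sd- against yki3SA (log2 fold change -1.06 ± 0.13 (SE), adjusted p = 1e-06), and was not called in optix yki3SA (0.24, adjusted p = 0.293).

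Mcm5 (FBgn0017577, 3R:10788524-10791150) was one of 3 members, with dup and RnrL, that rose in all 3 models. It had 69.8 and 64.3 CPM in eyFLP wts- discs, against 48.4, 41.7 and 31.1 CPM in eyFLP ctrl discs. Mcm5 had 45.4 and 57.1 CPM in optix yki3SA discs, against 42.7, 26.8 and 24.8 CPM in optix ctrl discs. For MARCM run 1 the levels were 23.9, 19.9 and 50.8 CPM in yki3SA sd-, 74.1, 74.4, 78.5, 68.8 and 75.6 CPM in yki3SA, 51.6, 45.7 and 36.3 CPM in sd- and 50.6, 48.8, 50.3, 48.2 and 44.5 CPM in ctrl libraries. For run 2 they were 55 and 60.6 CPM in yki3SA sd-, 138 CPM in yki3SA, 57.4 and 69.4 CPM in sd- and 72.2 and 68.2 CPM in ctrl libraries. The wts- and yki3SA libraries of each model lay above their controls without overlap, while yki3SA sd- replicates 1 and 2 of run 1 lay below every other library of that run and replicate 3 near the highest ctrl library. Mcm5 rose in wts- (log2 fold change 0.73 ± 0.18 (SE), adjusted p = 0.00487), optix (log2 fold change 0.70 ± 0.19 (SE), adjusted p = 0.0108) and MARCM yki3SA (log2 fold change 0.69 ± 0.15 (SE), adjusted p = 0.000931), and fell in yki3SA sd- against yki3SA (log2 fold change -1.19 ± 0.17 (SE), adjusted p = 8.5e-06). In the optix model the call ended without ctrl replicate 2 (adjusted p = 0.0504) or yki3SA replicate 2 (0.186).

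Mcm2 levels were 73.2 and 70.1 CPM in eyFLP wts- discs, against 61.6, 58.4 and 45.3 CPM in eyFLP ctrl discs. Mcm2 had 76.8 and 67.2 CPM in optix yki3SA discs, against 81, 61.1 and 49.4 CPM in optix ctrl discs. MARCM run 1 libraries had 62.6, 66.6 and 66.2 CPM in yki3SA sd-, 93.7, 93.7, 89, 82.5 and 86.7 CPM in yki3SA, 82.6, 66.1 and 70.7 CPM in sd- and 76.1, 71.6, 71.9, 68.9 and 65.7 CPM in ctrl libraries. MARCM run 2 libraries had 69.2 and 71.9 CPM in yki3SA sd-, 147 CPM in yki3SA, 78.4 and 84.5 CPM in sd- and 77.6 and 79.6 CPM in ctrl libraries. Of the 3 models only MARCM yki3SA passed the test (log2 fold change 0.45 ± 0.09 (SE), adjusted p = 0.000507), and it was larger in run 2 alone (0.77) than in run 1 alone (0.28, adjusted p = 0.0512). Mcm2 fell in yki3SA sd- against yki3SA (log2 fold change -0.60 ± 0.10 (SE), adjusted p = 6.33e-05), where the groups did not overlap in either run.

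Mcm3 had 27.7 and 21.2 CPM in eyFLP wts- discs, against 25.2, 21.2 and 13.1 CPM in eyFLP ctrl discs. Mcm3 had 14.4 and 21.7 CPM in optix yki3SA discs, against 17.1, 11.4 and 14.4 CPM in optix ctrl discs. Its MARCM levels in run 1 were 6.56, 13.4 and 17.4 CPM in yki3SA sd-, 22.3, 20.7, 21.5, 31.8 and 36.7 CPM in yki3SA, 27.2, 22.2 and 11.1 CPM in sd- and 17.5, 17.9, 15.4, 25.4 and 20.3 CPM in ctrl libraries. Its levels in run 2 were 64.1 and 67.8 CPM in yki3SA sd-, 154 CPM in yki3SA, 73.5 and 82.7 CPM in sd- and 90.6 and 90.9 CPM in ctrl libraries. It was not called in eyFLP wts-, optix yki3SA or MARCM yki3SA discs against their controls (0.30 in wts-, 0.34 in optix and 0.52 in MARCM, adjusted p 0.515, 0.438 and 0.0544), and fell in yki3SA sd- against yki3SA (log2 fold change -1.08 ± 0.24 (SE), adjusted p = 0.000708). Among the others, Mcm7 rose in wts- and MARCM yki3SA, dpa rose by 1.13 in optix yki3SA, and Orc1, Orc2 and dup rose in MARCM yki3SA. Orc5 and Orc6 had 0 to 21.4 CPM and 0.625 to 10.2 CPM and were not called in any of the 7 comparisons. The optix value of dpa rested on 1 library, since levels were 42 and 96.3 CPM in optix yki3SA discs, against 35.5, 17 and 41.9 CPM in optix ctrl discs and the adjusted p was 0.583 without optix yki3SA replicate 2.

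**Figure D2:**
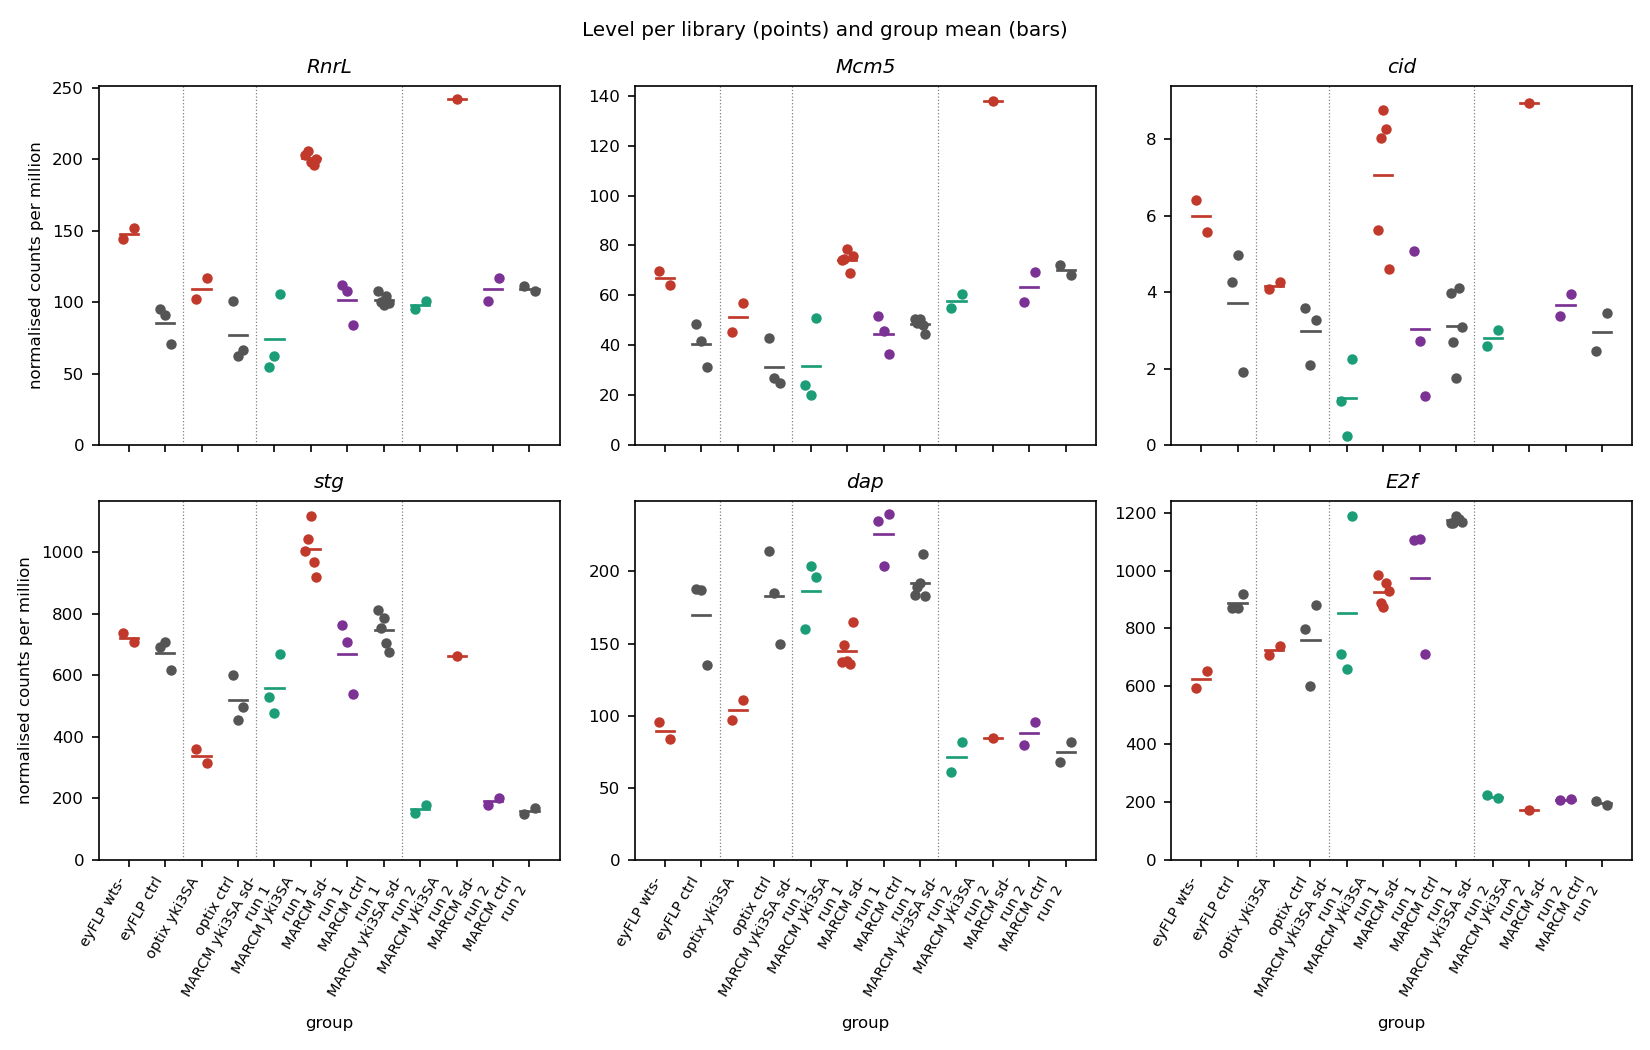
CPM of 6 members in every library (points) with the group mean (bars), eyFLP and optix groups first and then MARCM runs 1 and 2 separated by dotted lines, with controls in grey. RnrL reaches 196 to 206 CPM in run 1 yki3SA libraries, above every other run 1 library of the model, stg is lower in optix yki3SA and higher in MARCM yki3SA than in their controls, and E2f has 661 to 1190 CPM in run 1 MARCM libraries but 172 to 223 CPM in run 2.

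Among the 8 members that control the G1 to S step, movement went both ways, and 0 rose in eyFLP wts-, 1 in optix yki3SA and 1 in MARCM yki3SA. The shares of all genes that rose there were 10.6%, 9.02% and 17.3%. Dacapo (dap, FBgn0010316) inhibits Cyclin E with its kinase and holds cells in G1. It had 95.7 and 83.5 CPM in eyFLP wts- discs, against 188, 187 and 135 CPM in eyFLP ctrl discs. dap had 97.2 and 111 CPM in optix yki3SA discs, against 214, 185 and 150 CPM in optix ctrl discs. The MARCM levels in run 1 were 160, 204 and 196 CPM in yki3SA sd-, 137, 149, 138, 136 and 165 CPM in yki3SA, 235, 204 and 240 CPM in sd- and 184, 189, 192, 212 and 183 CPM in ctrl libraries. In run 2 they were 61 and 81.6 CPM in yki3SA sd-, 84.3 CPM in yki3SA, 79.9 and 95.7 CPM in sd- and 67.8 and 81.4 CPM in ctrl libraries. All wts- libraries, all optix yki3SA libraries and all run 1 yki3SA libraries of the MARCM model lay below their controls, whereas in run 2 the yki3SA library lay above them. dap fell in wts- (log2 fold change -0.92 ± 0.15 (SE), adjusted p = 5.73e-05), in optix yki3SA (log2 fold change -0.81 ± 0.15 (SE), adjusted p = 0.000446) and by less in MARCM yki3SA (log2 fold change -0.28 ± 0.11 (SE), adjusted p = 0.0468). It is the only member called lower in all 3 models; in run 2 alone its MARCM value was 0.05 (adjusted p = 0.89) and in run 1 alone -0.46 (adjusted p = 0.00231).

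Cyclin D (CycD, X:15906822-15909676) had 28 and 26.1 CPM in eyFLP wts- discs, against 40, 40.4 and 46.1 CPM in eyFLP ctrl discs. CycD had 33.7 and 29.6 CPM in optix yki3SA discs, against 40, 45.1 and 40.3 CPM in optix ctrl discs. In the MARCM model run 1 showed 70.6, 103 and 55.3 CPM in yki3SA sd-, 31.4, 35.3, 30.5, 42.2 and 36.9 CPM in yki3SA, 56.7, 51.3 and 62.2 CPM in sd- and 47.5, 37.1, 34.9, 51.7 and 43.4 CPM in ctrl libraries. Run 2 showed 74.9 and 71.8 CPM in yki3SA sd-, 57.3 CPM in yki3SA, 77.6 and 77.5 CPM in sd- and 72.2 and 71 CPM in ctrl libraries. The wts- and yki3SA libraries were lower than their controls without overlap in the eyFLP and optix models and in run 2, and with overlap in run 1. CycD fell in wts- (log2 fold change -0.64 ± 0.16 (SE), adjusted p = 0.00469), was not called in optix (-0.40, adjusted p = 0.0832) or MARCM yki3SA (-0.33, adjusted p = 0.102), and rose in yki3SA sd- against yki3SA (log2 fold change 0.87 ± 0.16 (SE), adjusted p = 0.000147). In yki3SA sd- against sd- it was not called (0.24, adjusted p = 0.353).

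Cyclin E (CycE) binds the kinase that starts S phase. Its levels were 69.9 and 62.4 CPM in eyFLP wts- discs, against 77.9, 60.9 and 61.7 CPM in eyFLP ctrl discs. CycE had 61.8 and 67.2 CPM in optix yki3SA discs, against 63.9, 59 and 64.5 CPM in optix ctrl discs. Both pairs overlapped. Run 1 of the MARCM model gave 82.3, 96.5 and 92.1 CPM in yki3SA sd-, 109, 101, 98.2, 106 and 95.4 CPM in yki3SA, 71.7, 69.1 and 90.9 CPM in sd- and 68.1, 72.9, 75.3, 72.1 and 71.9 CPM in ctrl libraries. Run 2 of it gave 42.9 and 48.9 CPM in yki3SA sd-, 73.5 CPM in yki3SA, 54.3 and 58.7 CPM in sd- and 45.6 and 55.3 CPM in ctrl libraries. All yki3SA libraries lay above ctrl in both runs. CycE rose there (log2 fold change 0.50 ± 0.10 (SE), adjusted p = 0.000344) and was not called in wts- (-0.01, adjusted p = 0.958) or optix yki3SA (0.04, adjusted p = 0.818). The wts- change minus the run 1 MARCM yki3SA change was itself called (-0.46 ± 0.14 (SE), adjusted p = 0.0464), beside 8.51% of all genes, 3.59% higher and 4.92% lower. It was not called under 2 other scalings, without a filter, or when any 1 of 13 libraries was left out (adjusted p 0.0522 to 0.257 without a library). With the replicate number as a block, which joins same-numbered libraries of a model, it was -0.50 (adjusted p = 0.0524).

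E2f, the activating E2f1 factor, had 593 and 654 CPM in eyFLP wts- discs, against 872, 871 and 918 CPM in eyFLP ctrl discs. E2f had 709 and 739 CPM in optix yki3SA discs, against 799, 602 and 880 CPM in optix ctrl discs. Levels in MARCM run 1 were 712, 661 and 1188 CPM in yki3SA sd-, 984, 889, 873, 957 and 929 CPM in yki3SA, 1106, 1108 and 712 CPM in sd- and 1164, 1165, 1190, 1180 and 1169 CPM in ctrl libraries. Levels in run 2 were 223 and 214 CPM in yki3SA sd-, 172 CPM in yki3SA, 207 and 210 CPM in sd- and 203 and 188 CPM in ctrl libraries. Wts- libraries lay below their controls without overlap, as did yki3SA libraries below ctrl in both MARCM runs. E2f fell by the test in wts- (log2 fold change -0.51 ± 0.11 (SE), adjusted p = 0.00167) and not in MARCM yki3SA (-0.29, adjusted p = 0.1). In MARCM yki3SA it was also not called in run 1 alone, with the replicate block in all MARCM libraries, or with RLE scaling, no filter or limma-voom. It was called with DESeq2, upper-quartile scaling and a mean CPM of 10 required. In the blocked fit of ctrl and yki3SA libraries alone, added after seeing the data, its value was -0.41 (adjusted p = 0.000185). Of the other 4 members in this role, Cdk4 rose in optix yki3SA (0.65), Rbf and E2f2 fell in yki3SA sd- against yki3SA (-1.19 and -0.82), and Dp was not called. Those 2 falls came with 18.1, 42.2 and 48.2 CPM of Rbf and 9.65, 12.7 and 28.4 CPM of E2f2 in the run 1 yki3SA sd- libraries, and without the libraries that stood apart E2f2 was not called (-0.23, adjusted p = 0.111).

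String (stg, FBgn0003525, 3R:29251826-29255800, minus strand) is the Cdc25 phosphatase that starts mitosis in disc cells, and it was the one member called in opposite directions in 2 models of Yki activity. It had 737 and 709 CPM in eyFLP wts- discs, against 693, 710 and 619 CPM in eyFLP ctrl discs, with 1 wts- library above all controls and the other within their range. Under optix it had 361 and 316 CPM in optix yki3SA discs, against 602, 456 and 497 CPM in optix ctrl discs, so that both yki3SA libraries lay below all controls. MARCM run 1 libraries held 530, 479 and 670 CPM in yki3SA sd-, 1004, 1045, 1119, 970 and 919 CPM in yki3SA, 765, 708 and 539 CPM in sd- and 814, 755, 788, 706 and 675 CPM in ctrl libraries, and those of run 2 152 and 179 CPM in yki3SA sd-, 664 CPM in yki3SA, 178 and 202 CPM in sd- and at most 169 CPM in ctrl libraries. The yki3SA libraries lay above all other groups in both runs. stg fell in optix yki3SA (log2 fold change -0.61 ± 0.13 (SE), adjusted p = 0.00124) and rose in MARCM yki3SA (log2 fold change 0.81 ± 0.18 (SE), adjusted p = 0.000774), more so in run 2 alone (1.93, 1 library) than in run 1 alone (0.38, adjusted p = 0.031). The optix change minus the run 1 MARCM change was -0.99 ± 0.15 (SE), adjusted p = 8.98e-05, beside 15.8% of all genes called, 7.75% higher and 8.02% lower. The wts- change minus the optix change was 0.72 ± 0.18 (SE), adjusted p = 0.0117, beside 8.19%, 3.36% higher and 4.83% lower. The second of these differences ended without optix yki3SA replicate 2 (adjusted p = 0.0632). In yki3SA sd- against yki3SA stg fell (log2 fold change -1.13 ± 0.20 (SE), adjusted p = 6.73e-05).

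Tribbles (trbl) acts against String by promoting its degradation. It had 48.4 and 45.2 CPM in eyFLP wts- discs, against 34.6, 36.7 and 28.1 CPM in eyFLP ctrl discs. trbl had 41.3 and 42.1 CPM in optix yki3SA discs, against 42.6, 37.3 and 47 CPM in optix ctrl discs. MARCM levels were 39, 71.4 and 52.2 CPM in yki3SA sd-, 46.8, 60.8, 49.3, 57.1 and 58.9 CPM in yki3SA, 45.2, 41.4 and 43.5 CPM in sd- and 33.8, 37.4, 38.2, 38.8 and 37 CPM in ctrl libraries in run 1. In run 2 they were 37.7 and 37.7 CPM in yki3SA sd-, 71 CPM in yki3SA, 35.7 and 37.9 CPM in sd- and 42.1 and 38.1 CPM in ctrl libraries. The wts- and yki3SA libraries did not overlap with controls in the eyFLP model and both MARCM runs and overlapped in optix. trbl rose in wts- (log2 fold change 0.50 ± 0.14 (SE), adjusted p = 0.00883) and MARCM yki3SA (log2 fold change 0.59 ± 0.14 (SE), adjusted p = 0.0015). The optix change was lower than that in run 1 MARCM (-0.52 ± 0.17 (SE), adjusted p = 0.0385), a call that ended when any 1 of 9 libraries was left out (adjusted p 0.0521 to 0.112) and with the replicate block (adjusted p = 0.0647).

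The kinase Polo, which acts from mitotic entry to cytokinesis, had 127 and 128 CPM in eyFLP wts- discs, against 106, 109 and 90.3 CPM in eyFLP ctrl discs. polo had 101 and 125 CPM in optix yki3SA discs, against 78.6, 80.3 and 77.5 CPM in optix ctrl discs. In MARCM run 1 there were 95.8, 176 and 107 CPM in yki3SA sd-, 135, 152, 155, 177 and 177 CPM in yki3SA, 134, 135 and 97.7 CPM in sd- and 106, 103, 109, 117 and 129 CPM in ctrl libraries. In MARCM run 2 there were 237 and 229 CPM in yki3SA sd-, 373 CPM in yki3SA, 235 and 246 CPM in sd- and 258 and 254 CPM in ctrl libraries. The wts- and yki3SA libraries exceeded their controls in every library. polo rose in optix yki3SA (log2 fold change 0.52 ± 0.13 (SE), adjusted p = 0.00495) and MARCM yki3SA (log2 fold change 0.49 ± 0.12 (SE), adjusted p = 0.0031), and was not called in wts- (0.32, adjusted p = 0.0679). Wee1, the kinase that restrains mitotic entry, had 14 and 11 CPM in eyFLP wts- discs, against 13.5, 11.8 and 9.58 CPM in eyFLP ctrl discs. Wee1 had 13.9 and 8.6 CPM in optix yki3SA discs, against 12.8, 14.3 and 12.9 CPM in optix ctrl discs. Its MARCM levels were 26.1, 73.8 and 16.1 CPM in yki3SA sd-, 14, 16.8, 13.6, 12.7 and 16.6 CPM in yki3SA, 19.3, 14.4 and 23.2 CPM in sd- and 10.9, 13, 12.3, 14.9 and 13.4 CPM in ctrl libraries in run 1, and 31.5 and 32.5 CPM in yki3SA sd-, 44 CPM in yki3SA, 31 and 31.3 CPM in sd- and 30.5 and 29.2 CPM in ctrl libraries in run 2. In run 1 the yki3SA sd- value of replicate 2 was far above the others. Its call in yki3SA sd- against yki3SA (log2 fold change 0.85 ± 0.31 (SE), adjusted p = 0.0239) rested on that library, with an adjusted p of 0.251 without it, and run 2 alone gave a value of the other sign, -0.30 (adjusted p = 0.0053). The mitotic cyclins CycA and CycB3 were not called in any of the 7 comparisons, and CycB fell only in yki3SA sd- against yki3SA (-0.35), a call that ended in 8 of 11 cases of leaving out a library (adjusted p 0.0542 to 0.323).

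The anaphase-promoting complex is switched on by Fizzy (fzy, the Cdc20 protein) in mitosis and by Fizzy-related (listed as rap) in G1. For rap the levels were 11.1 and 13.6 CPM in eyFLP wts- discs, against 13, 15.8 and 15.2 CPM in eyFLP ctrl discs. rap had 10.1 and 13.5 CPM in optix yki3SA discs, against 25.1, 16.7 and 21.2 CPM in optix ctrl discs. Run 1 MARCM levels were 7.07, 3.35 and 17.1 CPM in yki3SA sd-, 21.3, 17.8, 15, 13.9 and 13.1 CPM in yki3SA, 16.8, 15.3 and 14.8 CPM in sd- and 16.4, 15.8, 16.6, 16.4 and 16.5 CPM in ctrl libraries. Run 2 MARCM levels were 32.5 and 33.1 CPM in yki3SA sd-, 36 CPM in yki3SA, 29.5 and 26.5 CPM in sd- and 27 and 25.5 CPM in ctrl libraries. rap fell in optix yki3SA, where its libraries lay below all controls (log2 fold change -0.83 ± 0.21 (SE), adjusted p = 0.0086), although not without yki3SA replicate 1 (adjusted p = 0.0861). It was not called in wts- (-0.25, adjusted p = 0.469) or MARCM yki3SA (0.11, adjusted p = 0.771). The optix change minus the run 1 MARCM change was -0.77 ± 0.26 (SE), adjusted p = 0.0487, a call that ended when any 1 of 11 libraries was left out (adjusted p 0.0588 to 0.16) and with the replicate block (adjusted p = 0.106).

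For fzy both optix yki3SA libraries lay above all controls, 1 of them by little, with 10.1 and 20.2 CPM in optix yki3SA discs, against 8.81, 5.47 and 10 CPM in optix ctrl discs. It had 18.8 and 16 CPM in eyFLP wts- discs, against 21, 17.9 and 13.6 CPM in eyFLP ctrl discs. MARCM run 1 held 9.52, 11.7 and 11.8 CPM in yki3SA sd-, 15, 15, 13.8, 21.5 and 25.9 CPM in yki3SA, 19.9, 15.7 and 6.12 CPM in sd- and 17.3, 10.7, 13.5, 17.2 and 15.6 CPM in ctrl libraries. MARCM run 2 held 71.9 and 69.1 CPM in yki3SA sd-, 119 CPM in yki3SA, 75.7 and 76.8 CPM in sd- and 82.5 and 86.6 CPM in ctrl libraries. fzy rose in optix yki3SA (log2 fold change 0.90 ± 0.31 (SE), adjusted p = 0.044), a call that ended without optix ctrl replicate 1 or 2 or yki3SA replicate 2 (adjusted p 0.0621 to 0.724), and fell in yki3SA sd- against yki3SA (log2 fold change -0.71 ± 0.22 (SE), adjusted p = 0.00992). Securin (pim), which keeps sister chromatids together, and the spindle checkpoint kinase BubR1 were not called in any of the 7 comparisons. For pim the levels were 25.1 and 22.6 CPM in eyFLP wts- discs, against 25.5, 25.9 and 18.2 CPM in eyFLP ctrl discs. pim had 20.3 and 27 CPM in optix yki3SA discs, against 27.1, 24.4 and 24.1 CPM in optix ctrl discs. In MARCM runs 1 and 2 pim ranged from 18.9 to 27.9 CPM and from 14.6 to 23.9 CPM over all libraries. BubR1 had 64.4 and 57.3 CPM in eyFLP wts- discs, against 46.3, 51.1 and 30.8 CPM in eyFLP ctrl discs. BubR1 had 31.9 and 49.3 CPM in optix yki3SA discs, against 38.8, 35.9 and 32.8 CPM in optix ctrl discs. In the MARCM model BubR1 ranged from 31.5 to 65.4 CPM in run 1 and from 77.5 to 120 CPM in run 2, where the highest was the yki3SA library. The smallest adjusted p of BubR1 over the 7 comparisons was 0.0753 and that of pim 0.395.

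The chromosomal passenger complex corrects spindle attachments and steers cytokinesis, and Borealin (borr) and Incenp are non-kinase members of it. borr had 54.8 and 47.8 CPM in eyFLP wts- discs, against 47.3, 43 and 42.4 CPM in eyFLP ctrl discs. borr had 28.2 and 35.5 CPM in optix yki3SA discs, against 35.6, 24.9 and 31.1 CPM in optix ctrl discs. MARCM run 1 values were 16.7, 35 and 40.5 CPM in yki3SA sd-, 62.4, 62.5, 66.8, 76.5 and 84.7 CPM in yki3SA, 52.9, 50.8 and 35.1 CPM in sd- and 44.6, 44.4, 45.3, 54.4 and 47.5 CPM in ctrl libraries. MARCM run 2 values were 50.2 and 52.8 CPM in yki3SA sd-, 96.4 CPM in yki3SA, 67.9 and 73.5 CPM in sd- and 73 and 74.7 CPM in ctrl libraries. In both runs yki3SA sd- libraries were below ctrl and yki3SA libraries above it, without overlap. borr rose in MARCM yki3SA (log2 fold change 0.55 ± 0.15 (SE), adjusted p = 0.00569) and fell in yki3SA sd- against yki3SA (log2 fold change -1.12 ± 0.17 (SE), adjusted p = 1.13e-05), and was not called in wts- or optix yki3SA (0.21 and 0.06). Incenp had 146 and 158 CPM in eyFLP wts- discs, against 117, 106 and 98.3 CPM in eyFLP ctrl discs. Incenp had 132 and 135 CPM in optix yki3SA discs, against 136, 124 and 88.1 CPM in optix ctrl discs. Over MARCM run 1 it had 198, 131 and 137 CPM in yki3SA sd-, 234, 187, 188, 182 and 177 CPM in yki3SA, 124, 122 and 168 CPM in sd- and 145, 138, 133, 125 and 124 CPM in ctrl libraries. Over run 2 it had 128 and 130 CPM in yki3SA sd-, 265 CPM in yki3SA, 135 and 145 CPM in sd- and 152 and 140 CPM in ctrl libraries. All wts- and MARCM yki3SA libraries lay above their controls. Incenp rose in wts- (log2 fold change 0.50 ± 0.15 (SE), adjusted p = 0.0156) and MARCM yki3SA (log2 fold change 0.60 ± 0.12 (SE), adjusted p = 0.000373), and fell in yki3SA sd- against yki3SA (log2 fold change -0.52 ± 0.13 (SE), adjusted p = 0.0028).

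The centromeric histone cid had few counts, with 6.42 and 5.57 CPM in eyFLP wts- discs, against 4.26, 4.96 and 1.92 CPM in eyFLP ctrl discs. cid had 4.08 and 4.26 CPM in optix yki3SA discs, against 3.59, 2.1 and 3.28 CPM in optix ctrl discs. MARCM run 1 had 1.16, 0.24 and 2.25 CPM in yki3SA sd-, 5.62, 8.04, 8.77, 8.26 and 4.6 CPM in yki3SA, 5.07, 2.73 and 1.29 CPM in sd- and 3.98, 2.7, 1.75, 4.11 and 3.09 CPM in ctrl libraries. MARCM run 2 had 2.58 and 3.01 CPM in yki3SA sd-, 8.96 CPM in yki3SA, 3.38 and 3.95 CPM in sd- and 2.46 and 3.45 CPM in ctrl libraries. Its yki3SA libraries lay above all others of their run, apart from 1 sd- library of run 1 at 5.07 CPM. cid had the largest rise among members in MARCM yki3SA (log2 fold change 1.29 ± 0.32 (SE), adjusted p = 0.0028) and the largest fall in yki3SA sd- against yki3SA (log2 fold change -2.02 ± 0.38 (SE), adjusted p = 0.000164), and both held in run 1 alone (1.11 and -2.37) and in run 2 alone (1.47 and -1.52).

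Klp61F is the bipolar kinesin that separates spindle poles. It had 70.5 and 77.2 CPM in eyFLP wts- discs, against 44.6, 32.5 and 34.8 CPM in eyFLP ctrl discs. Klp61F had 77.3 and 56.9 CPM in optix yki3SA discs, against 86.3, 75.6 and 63.9 CPM in optix ctrl discs. In run 1 MARCM discs the levels were 128, 183 and 79.4 CPM in yki3SA sd-, 66.1, 85.4, 79.8, 77.8 and 75.3 CPM in yki3SA, 49.1, 44.8 and 104 CPM in sd- and 41.4, 60.8, 58.9, 41.8 and 39.3 CPM in ctrl libraries. In run 2 discs they were 98.3 and 99 CPM in yki3SA sd-, 209 CPM in yki3SA, 112 and 114 CPM in sd- and 113 and 111 CPM in ctrl libraries. Klp61F had the largest rise among members in wts- (log2 fold change 0.99 ± 0.20 (SE), adjusted p = 0.000496), and both libraries lay far above the controls. In optix yki3SA it was not called (-0.17, adjusted p = 0.587), and the wts- change minus the optix change was 1.16 ± 0.28 (SE), adjusted p = 0.0106, although without optix yki3SA replicate 2 its adjusted p was 0.0731. The optix change minus the run 1 MARCM change was -0.78 ± 0.24 (SE), adjusted p = 0.0317, a call that ended when any 1 of 8 libraries was left out (adjusted p 0.051 to 0.214). It rose in MARCM yki3SA close to the threshold (log2 fold change 0.67 ± 0.25 (SE), adjusted p = 0.0466). In yki3SA sd- against yki3SA it was not called in the fit of all MARCM libraries, and the runs went opposite ways. In run 1 the yki3SA sd- libraries at 128 and 183 CPM lay above all yki3SA libraries, and that at 79.4 CPM lay within their range. In run 2 both yki3SA sd- libraries lay below the yki3SA library. The exons of Klp61F overlap those of galene on the other strand. Of the rest of this role, pav and ncd, a kinesin of the central spindle and a minus-end kinesin, rose in MARCM yki3SA, tum, the partner of pav, fell in yki3SA sd- against yki3SA (-1.27), and the spindle pole protein asp was not called.

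S phase genes as a class had a higher median log2 fold change than mitotic genes in wts- or yki3SA discs of each of the 3 models. The median log2 fold change of the 12 S phase and the 16 mitotic members was 0.50 and 0.32 in eyFLP wts-, 0.27 and 0.20 in optix yki3SA, and 0.61 and 0.48 in MARCM yki3SA. For MARCM sd- against ctrl it was -0.05 and 0.05, for yki3SA sd- against sd- -0.29 and -0.03, for yki3SA sd- against yki3SA -0.96 and -0.39, and for the interaction -0.93 and -0.45. The median of all genes tested lay between -0.09 and 0.08 in these 7 comparisons. In eyFLP wts- 6 of 12 S phase and 2 of 16 mitotic members rose, in optix yki3SA 3 and 2 rose and 1 mitotic member fell, and in MARCM yki3SA 8 and 8 rose. Of all genes tested 10.6%, 9.02% and 17.3% rose in these comparisons, so the mitotic counts in eyFLP wts- and optix yki3SA are near the share of all genes. In yki3SA sd- against yki3SA 8 of 12 and 9 of 16 fell, beside 28.1% of all genes. No test of the difference between the classes was made. With 1 library left out at a time the optix medians ranged from 0.16 to 0.43 for S phase and from 0.10 to 0.35 for mitotic members, so these ranges overlap. The mitotic medians moved with the run: in yki3SA against ctrl it was 0.32 in run 1 alone, and in yki3SA sd- against yki3SA -0.27 in run 1 alone and -0.64 in run 2 alone.

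Averaged within each library, as log2 CPM minus the mean of the model's controls of the same run, S phase genes were at 0.48 and 0.59 in eyFLP wts- libraries, against -0.28 to 0.26 in eyFLP ctrl libraries. Mitotic genes were at 0.30 and 0.33 in eyFLP wts- libraries, against -0.21 to 0.12 in eyFLP ctrl libraries. Neither class overlapped. The optix yki3SA libraries were at 0.19 and 0.56 for S phase genes, against -0.20 to 0.38 in optix ctrl libraries, so that these groups overlapped. In MARCM run 1 the S phase means were -0.74 to -0.12 in yki3SA sd-, 0.47 to 0.64 in yki3SA, -0.40 to 0.08 in sd- and -0.11 to 0.17 in ctrl libraries. The mitotic means of run 1 were -0.20 to 0.04 in yki3SA sd-, 0.32 to 0.48 in yki3SA, -0.18 to 0.22 in sd- and -0.07 to 0.06 in ctrl libraries. All yki3SA libraries of run 1 lay above all other run 1 libraries in both classes. In run 2 the S phase means were -0.30 and -0.22 in yki3SA sd-, 0.87 in yki3SA and -0.14 and 0.04 in sd- libraries. In each of the 5 yki3SA sd- and each of the 5 sd- libraries the S phase mean lay below the mitotic mean, and in each of the 6 MARCM yki3SA, 2 optix yki3SA and 2 eyFLP wts- libraries above it. Single control libraries also lay above it. The S phase mean minus the mitotic mean was 0.112 and 0.266 in the optix yki3SA libraries, against 0.162 in optix ctrl replicate 1. Orc5 weighs as much as any other gene in the S phase mean and was near 0 in the optix model. It had 0.24 and 4.17 CPM in optix yki3SA libraries, against 1.11, 0 and 0.579 CPM in optix ctrl libraries. The higher optix yki3SA value, of replicate 2, came from the library with 4.17 CPM, and means without Orc5 were not computed. In MARCM run 1 it was 0.085 and 0.029 in yki3SA replicates 3 and 4, against 0.111 in ctrl replicate 4. Both eyFLP wts- libraries, at 0.257 and 0.189, lay above eyFLP ctrl replicate 1 at 0.136.

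**Figure D3:**
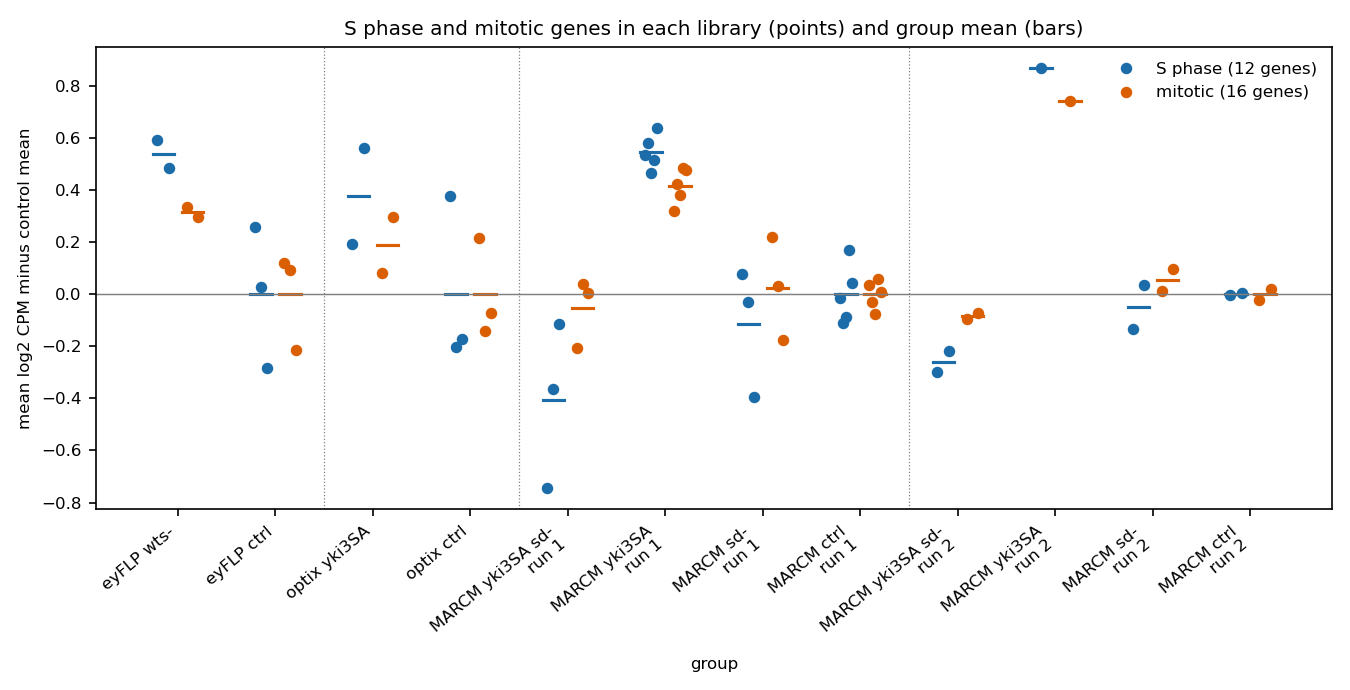
Mean of log2 CPM minus the control mean (same model and run) over 12 S phase genes (blue) and 16 mitotic genes (orange), one point per library with the group mean as a bar. The wts- and MARCM yki3SA points lie above all their controls, the optix groups overlap in both classes, and all 5 yki3SA sd- points lie below 0 for S phase genes.

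The runs of the MARCM model also allowed each change to be read in separate libraries. In yki3SA against ctrl, RnrL gave 0.92 in run 1 alone and 1.02 in run 2 alone, and Mcm6 0.54 and 0.82. Orc2 gave 0.61 and 1.21. In yki3SA sd- against yki3SA, S phase members other than Orc1 and Orc2 were negative in both runs, with RnrL at -1.39 and -1.14 and Mcm7 at -0.12 and -0.94. Orc1 and Orc2 differed in sign between runs, at 0.88 and 0.58 in run 1 and -0.91 and -1.36 in run 2. Members outside the S phase class also differed in direction between runs, among them Klp61F and Wee1. The yki3SA and ctrl libraries of run 2 also had another clone arm and driver than the run 2 yki3SA sd- and sd- libraries. In run 2, comparisons between these pairs therefore cannot tell sd from that background, and the run cannot be told apart from the background in yki3SA against ctrl.

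**Figure D4:**
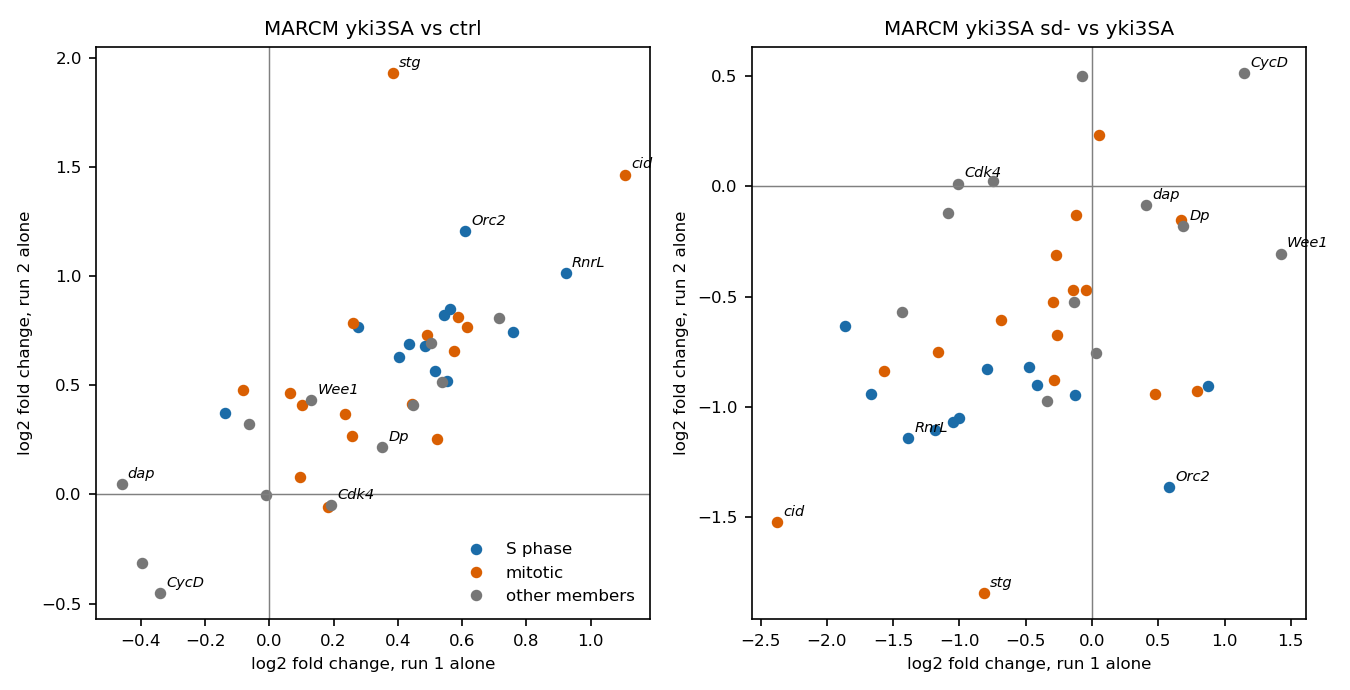
Log2 fold change of the 40 members in run 2 alone against run 1 alone, for MARCM yki3SA against ctrl (left) and yki3SA sd- against yki3SA (right), with S phase members in blue, mitotic ones in orange and others in grey. On the left stg lies at 0.38 in run 1 and 1.93 in run 2 and dap at -0.46 and 0.05. On the right Wee1 (1.42 and -0.30) and Orc2 (0.58 and -1.36) are among the members with opposite signs.

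Further genes of the same pathways, listed by role, were counted in the same fits. Of all genes tested 10.6% rose and 13.5% fell in eyFLP wts-, 9.02% and 10.5% in optix yki3SA, and 17.3% and 17.1% in MARCM yki3SA. In yki3SA sd- against yki3SA 24.9% rose and 28.1% fell, and in the interaction 15.0% were positive and 13.0% negative. Of 34 other S phase genes tested (37 listed) 14 rose and 0 fell in eyFLP wts-, led by DNApol-alpha50 (0.92) and DNApol-alpha73 (0.89) of the DNA polymerase alpha and primase complex and Caf1-180 (0.78) of the chromatin assembly factor. In optix yki3SA 5 rose and 0 fell, led by thymidylate synthase Ts (1.88), CG8142 (0.81) and the GINS subunit Psf2 (0.76). In MARCM yki3SA 20 of 36 rose and 0 fell, led by Ts (1.43), DNApol-alpha50 (1.15) and Caf1-180 (1.02). The medians of this list were 0.50, 0.28 and 0.62 in the 3 models. In yki3SA sd- against yki3SA 24 of 36 fell and 1 rose, in the interaction 18 were negative and 1 positive, and in both comparisons against ctrl or sd- with 0 member calls 0 were called here too.

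Of 47 other mitotic genes tested (49 listed) 8 rose and 1 fell in eyFLP wts-, with the largest changes in twe (1.48), a second Cdc25 gene known from meiosis, the separase gene Sse (-0.71) and the spindle gene mars (0.70). In optix yki3SA 5 rose and 2 fell, with Myt1 (1.36), an inhibitory kinase, twe (0.82) and mars (0.80) at the largest changes. In MARCM yki3SA 12 rose and 0 fell, led by twe (0.99) and the kinesins cana (0.78) and cmet (0.71). The medians were 0.21, 0.02 and 0.26, beside -0.01, 0.03 and 0.08 over all genes tested. Of all genes 10.6%, 9.02% and 17.3% rose in the 3 models, so the optix count and median of this list are near those of all genes. Of 12 other G1 to S genes, archipelago (ago), which marks Cyclin E for degradation, fell in all 3 models (-0.60, -0.56 and -0.41), Cul1 fell in wts- (-0.36) and mip120 rose in MARCM yki3SA (0.42).

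The 40 members lie on all major arms, with 8 on 2L, 13 on 2R, 6 on 3L, 8 on 3R and 5 on X. In the current annotation 16 of them share exon sequence with a gene on the other strand, among them CycE, Cdk4, E2f, Orc2, dup, fzy and Klp61F. Whether counting used the strand was not stated, so reads of such pairs cannot be told apart.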

How the data were processed

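RNA was sequenced with a 3' end method (QuantSeq 3' FWD) from eye-antennal discs in 33 libraries. The values are raw counts of reads per gene, deposited by the authors in 3 tables, of which 2 were used because the libraries of the third are also in one of them. Per the submitters' processing notes cutadapt, FastQC and STAR 2.6.1d were used with the dm6 genome. Which tool counted the reads, with which gene models and strand setting, was not stated. Total counts ran from 4874192 to 19128356 per library, which limits the precision of genes with few counts.

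Counts were tested with edgeR 4.0.16 (R 4.3.3), with TMM scaling, filterByExpr and the robust quasi-likelihood test. One fit held 20 libraries (eyFLP, optix and run 1 MARCM ctrl and yki3SA; 8693 genes), so that the 3 models share an estimate of spread. The other held the 23 MARCM libraries with the sequencing run as a term (8927 genes). P-values were adjusted by Benjamini-Hochberg over all genes of a fit, with a threshold of 0.05. Standard errors are the log2 fold change divided by the square root of the F value. The test was checked on simulated data for 2 comparisons only: with 1.5-fold, 2-fold, 3-fold and 4-fold changes it recovered 10.0%, 48.0%, 78.0% and 78.0% of the changed genes in eyFLP wts- against ctrl (8693 genes), and 20.0%, 62.0%, 78.0% and 90.0% in MARCM yki3SA against ctrl (8927 genes). In the simulation 50 genes were changed at each fold size, and each gene otherwise had the same mean level in all libraries. Far larger shares of genes were called in the data, and the runs differed, so these recovery rates need not hold for the comparisons here. Alternatives were DESeq2 1.42.0, limma 3.58.1 (voom), other scalings and filters, each run alone, a replicate block and leaving out libraries.

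In run 1 MARCM yki3SA and ctrl libraries, the deviations of all 5 same-numbered pairs from their group means correlated (r from 0.12 to 0.39). Some pairs with different numbers correlated too, such as yki3SA replicate 5 with ctrl replicate 4 (0.37) and yki3SA replicate 2 with ctrl replicate 3 (0.18). Others were negative, such as yki3SA replicate 5 with ctrl replicate 3 (-0.34). Pairing by number was therefore not shown, and the blocked fits assume it. In other pairs of groups some same-numbered pairs were negative, apart from eyFLP wts- and ctrl (0.03 to 0.07). The interaction and the differences from the MARCM change include the run 1 yki3SA and ctrl libraries.

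The members and gene lists are defined by gene names and roles, but were chosen with earlier results of these data known, so the choice was not independent of the data. Values in every library are given for up to 4 members per role, by their smallest adjusted p over 7 comparisons, and for members called in opposite directions. Up to 3 called genes per list and model are named from the other pathway genes, by size of change. Names of 1 gene were counted once, and 1 listed name is not in the tables. Promoter sequences were not used here, so the planned motif counts were not run.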

Additional observations from a re-analysis of the deposited data

Results flagged for a closer look

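BubR1 in MARCM yki3SA replicate 5 of run 1 had 60.3 CPM, far from the other 4 libraries of its group at 42.1 to 46.5 CPM. Incenp in MARCM yki3SA replicate 1 of run 1 had 234 CPM, far from the others at 177 to 188 CPM. These were 2 of 80 tests for such a gap, each of a single gene in a single group of libraries, and chance flags about 1 in 20.

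The yki3SA difference itself differed between clones without and with sd, by the interaction term of edgeR's quasi-likelihood test, for 15 members. Of all genes tested 27.9% were called in this interaction. Positive calls were 15.0% and negative calls 13.0% of all genes tested. On the log2 scale the interaction was -1.34 for RnrL, -0.90 for RnrS, -1.27 for dpa, -1.04 for Mcm5, -1.04 for Mcm3, -0.95 for Mcm6 and -0.63 for Mcm2. It was -0.47 for CycE, -1.15 for Rbf and -1.05 for stg. Among genes of the spindle and centromere it was -2.07 for cid, -1.22 for tum, -1.08 for borr, -0.66 for pav and -0.53 for Incenp.

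Differences between the models were called for few of the 40 members. There were 2 in eyFLP wts- minus optix yki3SA, 1 in eyFLP wts- minus MARCM yki3SA and 4 in optix minus MARCM yki3SA. The shares of all genes called were 8.19%, 8.51% and 15.8%, so members were not called more often than genes in general. The eyFLP wts- change minus the optix yki3SA change was 0.72 for stg and 1.16 for Klp61F. The eyFLP wts- change minus the run 1 MARCM yki3SA change was -0.46 for CycE. The optix yki3SA change minus the run 1 MARCM yki3SA change was -0.99 for stg, -0.52 for trbl, -0.77 for rap and -0.78 for Klp61F. Driver, clone system and cross differ between the models together and cannot be told apart.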

How the results depend on the processing

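Counts of called members changed by over 1.5 times as follows, and the cause was not tested. With only the libraries of the groups compared there were 22 in eyFLP wts-, 1 in optix yki3SA and 1 in the eyFLP wts- minus optix difference. Run 1 alone gave 7 in yki3SA sd- against sd- and 9 in the interaction, and run 2 alone gave 35 in MARCM yki3SA, 1 in yki3SA sd- against sd- and 33 in the interaction. RLE scaling, upper-quartile scaling and no filter gave 0 each in the eyFLP wts- minus MARCM difference. The optix minus MARCM difference had 2 with upper-quartile scaling, 2 with a mean CPM of 10 required and 2 unfiltered. Leaving out the 4 run 1 libraries with few yki counts, an alternative chosen after seeing the data, gave 24 in the interaction.

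The mitotic median was 0.32 in run 1 alone in MARCM yki3SA, and -0.27 in run 1 alone and -0.64 in run 2 alone in yki3SA sd- against yki3SA. In the interaction it was -0.33 in run 1 alone and -0.63 in run 2 alone. Without the 4 libraries it was -0.20 in yki3SA sd- against sd-, -0.52 in yki3SA sd- against yki3SA and -0.65 in the interaction.

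Leaving out 1 library at a time gave 7 to 13 called members in eyFLP wts-, 3 to 12 in optix yki3SA, 16 to 20 in MARCM yki3SA, 19 to 27 in yki3SA sd- against yki3SA and 9 to 19 in the interaction. The differences between models ranged from 0 to 4 (eyFLP wts- minus optix), 0 to 1 (eyFLP wts- minus MARCM) and 1 to 6 (optix minus MARCM). The mitotic median ranged from -0.19 to 0.03 in yki3SA sd- against sd-, -0.44 to -0.24 in yki3SA sd- against yki3SA, -0.51 to -0.31 in the interaction and 0.10 to 0.35 in optix yki3SA.

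Among members called in a comparison, the sign changed in 4 cases. In run 2 alone these were dap in MARCM yki3SA (0.047, adjusted p = 0.89 by edgeR), Cdk4 in yki3SA sd- against yki3SA (0.012, adjusted p = 0.88) and Wee1 there (-0.30, adjusted p = 0.0053), and without the 4 libraries Wee1 (-0.13, adjusted p = 0.601).

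With the replicate number as a block, 16 members were called in MARCM yki3SA, where same-numbered run 1 libraries correlated. There were 27 with only ctrl and yki3SA libraries in the fit, a fit added after seeing the data. Some comparisons include these correlated libraries beside others. The block gave 13 in the interaction, with Rbf and dpa lost, and 10 in the optix minus MARCM difference, with trbl and rap lost and 8 others gained. In the eyFLP wts- minus MARCM difference CycE was lost and dap called. In the remaining comparisons libraries share only a number, and the block gave 12 in eyFLP wts-, 6 in optix yki3SA, 21 in yki3SA sd- against yki3SA, 2 in the eyFLP wts- minus optix difference and 0 in both sd- against ctrl and yki3SA sd- against sd-. Planned motif counts were not run.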
